A study of Bos taurus with 18 samples.

Results

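Resting dermal fibroblast cultures collected from Holstein heifers at 16 months of age were compared with the 5-month-old cultures of the same animals, before lipopolysaccharide (LPS) was added. The comparison took the 6 libraries labelled 0 h, 3 for each age, out of the 18 libraries of the study, and the animal number on the label paired each 16-month library with a 5-month library. Both groups were primary skin cells without any introduced gene, grown in serum-containing medium, and neither had received LPS when it was lysed. The study drew the animals from a larger herd collection because their fibroblasts gave a mid-level response to LPS, and used cryopreserved aliquots of the same passage. Each library held the pooled lysate of a pair of wells. Each age of an animal was represented by a single culture, so the age of the animal, the biopsy occasion and the individual culture cannot be told apart.

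Dermal fibroblasts build and remodel the connective tissue of the skin. They secrete collagens, elastin and proteoglycans, pull on that matrix through actin filaments and integrins, and release growth factors, prostanoids and chemokines that act on neighbouring cells. They also carry Toll-like receptors and answer bacterial products, which is why they serve as a model of the innate response in cattle. In culture they divide until contact, serum limitation or repeated passage slows them, and genes for DNA synthesis and chromosome segregation are transcribed mostly in dividing cells.

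Poly-A enriched RNA had been sequenced, and the deposited values were raw read counts per gene window, a stretch of the genome that spans a gene with its introns. The 6 libraries held between 76174804 and 127757907 counts in gene windows, so counting error was small for most genes named below. Values are given as CPM, the gene-window count scaled by the library total, always in the order animal 1, 2 and 3. CPM was not divided by gene length, so levels were compared between ages and not between genes. A fold change is the log2 ratio of 16 over 5 months from edgeR with its standard error (SE), with the animal as block and n = 3 pairs. Genes with a Benjamini-Hochberg adjusted p below 0.05 over all genes tested, and a fold change of at least 2 in either direction, are described as called.

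Of 12984 genes tested, 355 were called higher and 170 lower in the 16-month-old cultures, which was 4.04% of genes. The share called higher was 2.73% and the share called lower was 1.31%, and the median log2 fold change of all tested genes was -0.01. Scaling by library size alone moved this median to 0.09 and raised every list median by 0.10. These shares are the background against which each gene list below is read. Of the called genes, 524 had the same sign in all 3 animals, and in 488 the values of the ages did not overlap, which was also so for 37.3% of all tested genes. Of the called genes, 67, or 12.8%, were below 1 CPM in each library of the age with the lower level, 42 of them higher and 25 lower at 16 months. Such genes passed the expression filter through the other age alone, which needed all 3 of its libraries at 1 CPM. They had to differ without overlap, in the same direction in each animal, to be tested. Their calls are therefore descriptions and do not add support to the count of a list. On the lists they were CDC6, NPY1R, P2RY1, F2R, CDKN1C, TNFSF13, C1RL, CDH10, ACAN, GREB1, DLL1, HOXA7, TBX2, LMX1B, PAX3 and RUNX3, and outside them DTX4 and NTS are named below. The 5-month library of animal 2 stood apart over all genes, with an SD of log2 deviations from the median library of 0.438 against 0.283 to 0.333 in the other libraries. Without animal 2, 576 genes were called, against 495 without animal 1 and 490 without animal 3, and 465 of the 525 calls were among the 576. All 19 fibroblast marker genes were tested, and their summed level was 116000 to 119000 CPM at 5 months and 106000 to 111000 CPM at 16 months. No fibroblast marker was called by edgeR, DESeq2 or limma-voom, although 2 had an unadjusted p below 0.05 in the higher and 9 in the lower direction. The macrophage markers TYROBP, C1QA and C1QC were at 0 reads in the 6 libraries. The other 14 of the 17 listed markers of macrophages and other myeloid cells gave a summed level of 9.24 to 24.6 CPM at 5 months and 11 to 35.9 CPM at 16 months. Most of that sum was LAPTM5, a lysosomal protein of blood cells, at 18.6, 6.06 and 20.7 CPM and then 32.2, 7.38 and 30.2 CPM, a log2 fold change of 0.45 ± 0.097 (adjusted p = 0.0298). The part of such cells in the results was not tested.

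**Figure D1:**
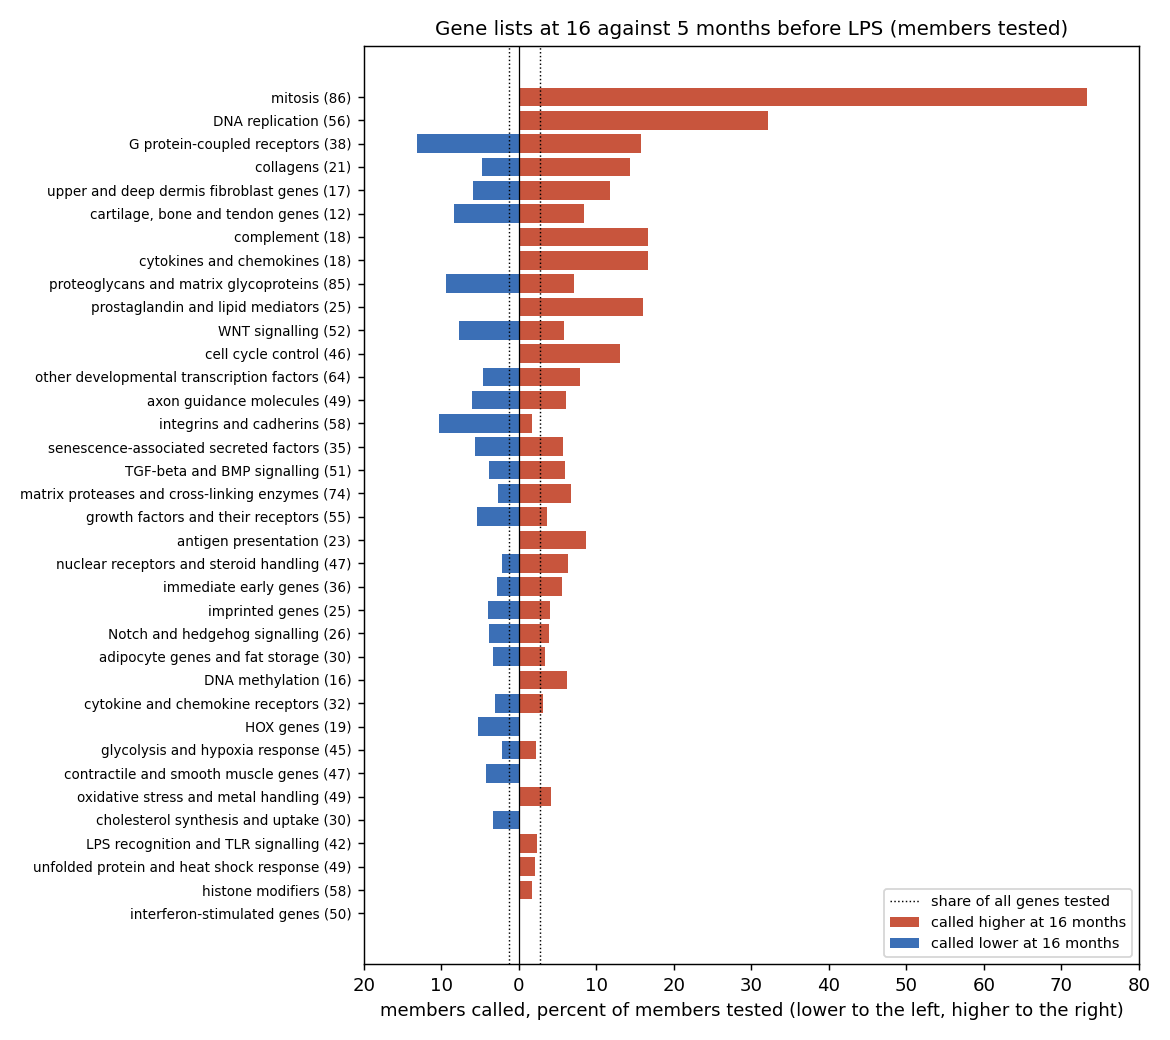
Share of tested members called in each gene list, in percent, with members called lower to the left and higher to the right of zero, list sizes in parentheses, and dotted lines at the shares of all tested genes. Mitosis and DNA replication genes were called higher in 73.3% and 32.1% of tested members, and interferon-stimulated genes had no call.

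Among the gene lists, cell division genes held the most calls in 16-month-old cultures, and these calls were higher. Among 86 tested genes of mitosis, 63 were called higher, or 73.3%, and the median log2 fold change was 1.22. None was called lower by edgeR, DESeq2 or limma-voom, and 1 member had an unadjusted p below 0.05 in the lower direction. Among 56 tested genes of DNA replication, 18 were called higher, or 32.1%, with a median of 0.76. In total 87 of the 355 genes called higher, or 24.5%, stood on a list of mitosis, DNA replication or cell cycle control.

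MKI67 encodes the Ki-67 protein that coats mitotic chromosomes and is the usual marker of dividing cells (UMD 3.1, chr26:47852175-47879375). It stood at 39.9, 27.3 and 46.6 CPM at 5 months and at 131, 83.8 and 130 CPM at 16 months. The 3 libraries of the older age were all above those of the younger, and animal 2 was the lowest at both ages. The log2 fold change was 1.51 ± 0.053 (SE, adjusted p = 0.000675).

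The rise extended over the steps of mitosis. FOXM1, the transcription factor that switches on the late cell cycle genes, rose by 1.79 ± 0.088 on the log2 scale. TOP2A, the topoisomerase that untangles chromosomes, went from 43.2, 29.7 and 54.1 CPM to 145, 97 and 141 CPM, a log2 fold change of 1.51 ± 0.079. CCNB1 and CDK1, the cyclin and kinase that together drive entry into mitosis, rose by 1.37 ± 0.064 and 1.12 ± 0.051. The groups did not overlap for either gene, since CCNB1 ranged from 12.9 to 21.3 CPM at 5 months and from 37.2 to 52.6 CPM at 16 months, while CDK1 ranged from 8.7 to 11.7 CPM and from 21.2 to 26.2 CPM. CENPE, a motor that brings chromosomes to the spindle centre, rose by 1.31 ± 0.037. CDC20, an activator of the complex that ends metaphase, rose by 1.62 ± 0.052. AURKB, the kinase of the chromosomal passenger complex, was not called because its log2 fold change of 0.74 ± 0.050 lay below the minimum, with an adjusted p of 0.00138. PTTG1, the securin that holds sister chromatids together until anaphase, was the only tested mitosis gene with a negative value, at -0.46 ± 0.11 (adjusted p = 0.0396).

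DNA replication genes were higher at 16 months over most of the list, mostly by less than 2-fold. At any fold change 45 of the 56 had an adjusted p below 0.05 in the higher direction, against 1692 of the 12984 genes tested, and 54, 55 and 55 of the 56 had the higher CPM at 16 months in animals 1, 2 and 3. CDC6 and CDT1, which load the replicative helicase at origins, had log2 fold changes of 2.31 ± 0.45 and 2.12 ± 0.12, and the CDT1 window overlaps that of APRT, so its reads cannot be assigned with certainty. CDC6 rested on 211 reads over the 5-month libraries, was below 1 CPM in each of them, and without animal 3 its adjusted p was 0.0544. RRM2, the ribonucleotide reductase subunit that supplies deoxynucleotides in S phase, went from 21.7, 20.8 and 27.6 CPM to 110, 79.8 and 113 CPM, a log2 fold change of 2 ± 0.081 with no overlap between the ages. Of the helicase subunits, MCM2 and MCM5 rose by 1.54 ± 0.057 and 1.61 ± 0.044, while MCM6 was at 81.2, 67.5 and 76.8 CPM at 5 months and 77.2, 67.6 and 77.8 CPM at 16 months. The log2 fold change of MCM6 was -0.12 ± 0.041 with an adjusted p of 0.104, and its groups overlapped. PCNA, the sliding clamp of the DNA polymerases, rose by 1.08 ± 0.065 and went from 20.5 to 28.3 CPM up to 45.9 to 61 CPM.

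The rise was of similar size in each animal. Summed over the 86 mitosis genes, the level was 1359, 1098 and 1581 CPM at 5 months and 3345, 2478 and 3426 CPM at 16 months, a ratio of 2.46, 2.26 and 2.17. Summed over the 56 replication genes, it was 1067, 1009 and 1128 CPM and then 1768, 1457 and 1789 CPM, a ratio of 1.66, 1.44 and 1.59. In every animal 85 of the 86 mitosis genes were higher at 16 months. RNA was taken from whole wells, so more dividing cells and more RNA of these genes per dividing cell cannot be told apart. The same cultures were also sampled after LPS, and 62 of 86 mitosis genes and 23 of 56 replication genes were called higher at 16 months there at 8 h, when 4.93% of all tested genes were called in either direction.

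**Figure D2:**
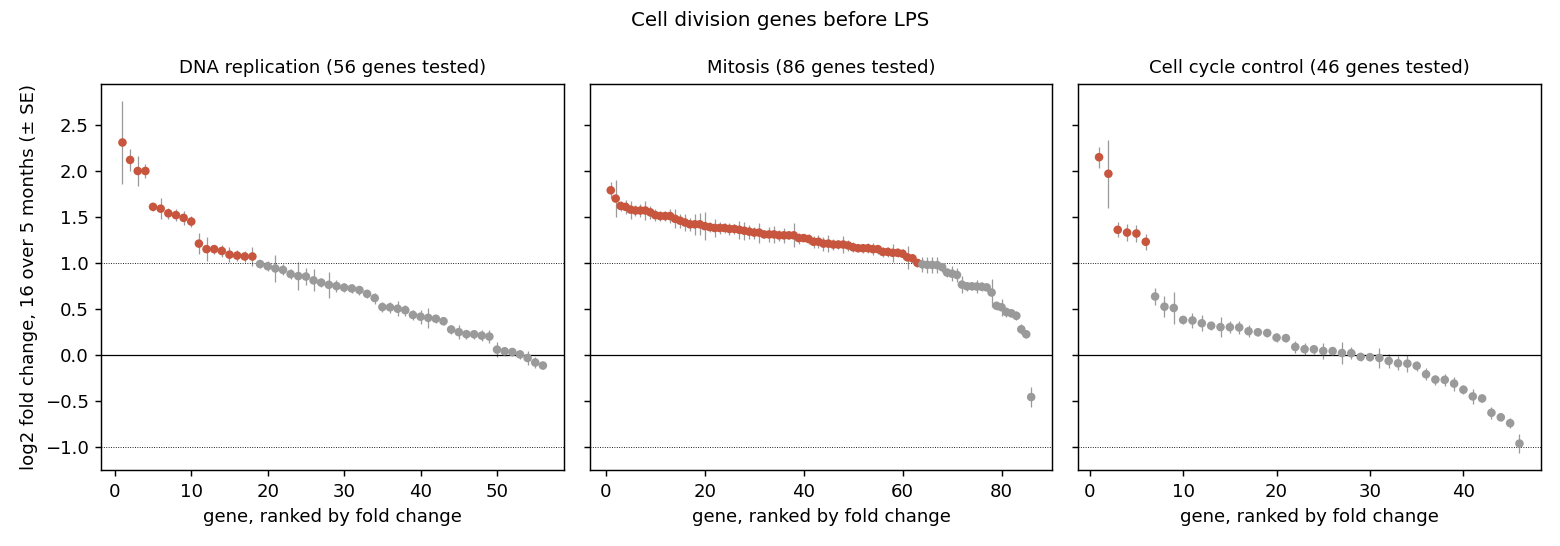
Log2 fold change of 16 over 5 months at 0 h, with SE, for each tested gene of 3 lists ranked from highest to lowest, red where called higher and grey where not called, with dotted lines at the 2-fold minimum. Mitosis genes lie above zero except PTTG1 at -0.46, while cell cycle control genes run from 2.15 for E2F8 to -0.97 for CDKN2B.

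Genes that control entry into the cell cycle had fewer calls. Of 46 tested cell cycle control genes, 6 were called, all higher, or 13%, and the list median was 0.06. E2F8 and E2F1, transcription factors of the G1 to S transition, rose by 2.15 ± 0.12 and 1.36 ± 0.082. LMNB1, the B-type nuclear lamin, rose by 1.32 ± 0.090, from 15.1, 8.84 and 14.6 CPM to 35.7, 27.6 and 38.2 CPM. The other 3 called members encode cell cycle inhibitors, namely CDKN1C at 1.97 ± 0.37, CDKN3 at 1.33 ± 0.097 and CDKN2C at 1.23 ± 0.088. CDKN1C passed the filter through the 16-month libraries alone and lost its call without animal 1 (adjusted p = 0.0524) and without animal 3 (adjusted p = 0.0542).

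Of the INK4 inhibitors, CDKN2A and CDKN2B, which accumulate in cultures that stop dividing, had lower values at 16 months but did not reach the 2-fold minimum. The other members of that family lay in the higher direction, CDKN2C with the call given above and CDKN2D at 0.37 ± 0.080 (adjusted p = 0.0294). CDKN2B was at 172, 164 and 179 CPM at 5 months and at 88.8, 108 and 86.1 CPM at 16 months, without overlap, a log2 fold change of -0.97 ± 0.099 (adjusted p = 0.00403) that passed the minimum without animal 2, at -1.10. CDKN2A was at 57.5, 56.8 and 53.1 CPM and then at 35.6, 39.9 and 31.9 CPM, also without overlap, at -0.74 ± 0.057 (adjusted p = 0.00188). CDKN1A, the p21 inhibitor, was at -0.31 ± 0.075 and its groups overlapped. Of 35 tested secreted factors that mark senescent fibroblasts, 2 were called higher and 2 lower, with a median of -0.002 that was 0.10 under scaling by library size alone. The calls were CCL2 and CCL26 in the higher direction and IGFBP5 and INHBA in the lower, and with no pairing of the animals 1 of the 4 calls was left.

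Chromatin genes showed few calls. Of 16 tested genes of DNA methylation, 1 was called, or 6.25%. This was UHRF1, at 1.77 ± 0.065. UHRF1 brings the maintenance methyltransferase to newly copied DNA, and its window overlaps that of LOC100848256. It went from 8.35, 6.16 and 9.42 CPM to 32.4, 20.2 and 36.3 CPM. DNMT1, the maintenance methyltransferase, also has an overlapping window and was not called, with 19.3, 17.3 and 18.4 CPM at 5 months, 33.2, 26.8 and 36 CPM at 16 months and a log2 fold change of 0.70 ± 0.073 (adjusted p = 0.00429). DNMT3A, which methylates unmarked DNA, lay below the expression filter at 0.477 to 0.708 CPM across the 6 libraries. TET2, a demethylating dioxygenase, was at -0.47 with an adjusted p of 0.00855. Of 58 tested histone modifiers, 1 was called, or 1.72%. This was WHSC1, at 1.03 ± 0.056, and without animal 3 it fell below the 2-fold minimum at 0.97.

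The extracellular matrix differed gene by gene, in both directions. Of 21 tested collagens, 3 were called higher and 1 lower, or 19%, with a list median of -0.14 that was -0.044 under scaling by library size alone. COL15A1, a collagen of the zone between basement membrane and dermis, was at 117, 76.2 and 133 CPM at 5 months and 538, 361 and 463 CPM at 16 months, a log2 fold change of 1.98 ± 0.10 (adjusted p = 0.000747). Every 16-month library exceeded every 5-month library. COL8A1, a short-chain collagen, rose by 3.76 ± 0.32, from 0.959, 1.61 and 1.66 CPM to 14.8, 38.7 and 13.3 CPM, and animal 2 was the highest at 16 months. COL18A1, a basement membrane collagen, rose by 1.38 ± 0.084. COL8A2, which forms the same kind of network as COL8A1, went the other way, from 9.94, 19.1 and 11.3 CPM to 5.56, 6.38 and 4.99 CPM, at -1.3 ± 0.14.

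The fibrillar collagens that make up the bulk of the dermis were not called. COL3A1 was at 21300, 28300 and 22200 CPM at 5 months and 23000, 23200 and 22800 CPM at 16 months, and the groups overlapped (log2 fold change -0.14 ± 0.094, adjusted p = 0.317). COL1A2 was at 25800, 35200 and 26500 CPM and then 21500, 25100 and 22100 CPM, without overlap, at -0.44 ± 0.075 (adjusted p = 0.0169). COL5A1, COL5A2 and COL11A1 were at -0.49, -0.37 and -0.57, with adjusted p of 0.014, 0.0102 and 0.0091. COL1A1, whose window overlaps that of LOC100847582, was at 27700, 10500 and 27800 CPM and then 20700, 26100 and 22500 CPM. The 5-month library of animal 2 was also far from the other COL1A1 values, and the log2 fold change was 0.09 ± 0.37 with all animals and -0.46 without animal 2 (adjusted p = 0.00598). COL4A1 and COL4A2, the chains of the basement membrane network, were at -0.85 ± 0.12 and -0.85 ± 0.13, with adjusted p of 0.0101 and 0.0112, below the 2-fold minimum. At any fold change, 10 collagens had an adjusted p below 0.05 in the lower and 3 in the higher direction, while 25.2% of all tested genes did so in either direction.

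Of 85 tested proteoglycans and matrix glycoproteins, 6 were called higher and 8 lower, or 16.5%, with a median of -0.11 that was -0.015 under scaling by library size alone. ACAN, the aggrecan core protein that holds water in cartilage and around cells (chr21:20800158-20868837), was at 0.791, 0.235 and 0.941 CPM at 5 months and 64.2, 21.1 and 54.3 CPM at 16 months. Even the lowest 16-month library was far above the highest 5-month library, and the log2 fold change was 6.06 ± 0.13. ACAN passed the filter through the 16-month libraries alone, which fixed the lack of overlap. ELN, which encodes the elastic fibre protein, was at 85.1, 337 and 142 CPM and then 848, 1030 and 686 CPM, at 2.3 ± 0.33 (adjusted p = 0.0102). Animal 2 was the highest at both ages, and the groups did not overlap. TNN, a tenascin, rose by 2.49 ± 0.34 on 0.752 to 2.92 CPM at 5 months. SMOC2, a calcium-binding matricellular protein, was at 2.37 ± 0.41 and lost its call without animal 1 (adjusted p = 0.0636) or animal 3 (adjusted p = 0.0565).

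The 4 deepest falls on this list were those of POSTN, SPOCK1, LTBP1 and DPT. LTBP1, which tethers latent TGF-beta to the matrix, was at 124, 269 and 168 CPM at 5 months and 30.3, 50.2 and 32.5 CPM at 16 months, a log2 fold change of -2.37 ± 0.084 (adjusted p = 0.000675). The groups did not overlap, and the window overlaps that of LOC100336097. POSTN, the matricellular protein periostin, was at 201, 526 and 149 CPM and then 18.4, 173 and 20.9 CPM, at -2.72 ± 0.38. Animal 2 was the highest at both ages, so that its 16-month value exceeded the 5-month value of animal 3 and the groups overlapped, although each animal fell. DPT, a dermatan sulfate-binding protein that speeds collagen fibril formation, fell by 2.02 ± 0.099. SPOCK1, a testican proteoglycan, fell by 2.4 ± 0.30, and MATN3, a matrilin, fell by 1.61 ± 0.12. FN1, LUM, BGN and DCN, which are general components of fibroblast matrix, were not called and had log2 fold changes of -0.54, -0.23, -0.07 and 0.14, and the value of BGN was 0.03 under scaling by library size alone or without animal 2. Without pairing of the animals 7 of the 14 calls were left, and ELN, TNN, DPT and POSTN were among those lost.

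Enzymes that cut or cross-link matrix gave 5 higher and 2 lower calls of 74 tested, or 9.46%, with a median of -0.03 that was 0.07 under scaling by library size alone. ADAMTS16 and ADAMTS17, secreted metalloproteases, rose by 1.85 ± 0.13 and 1.25 ± 0.14. P4HA3, a subunit of the hydroxylase that stabilises the collagen triple helix, went from 29.6, 32.1 and 32 CPM to 12.1, 13.5 and 10.5 CPM, at -1.48 ± 0.082. ADAMTS14, which trims procollagen, fell by 1.05 ± 0.11. TGM2, a transglutaminase, was called at 1.25 ± 0.27 with overlapping groups and lost the call without animal 1 (adjusted p = 0.116) or animal 3 (adjusted p = 0.118). ADAMTSL3 was called at 1.51 ± 0.28 and also lost it without animal 1 (adjusted p = 0.0779) or animal 3 (adjusted p = 0.0748). ADAMTS14 fell below the 2-fold minimum without animal 1, at -0.97, when the list held 4 calls.

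Adhesion receptors were called mainly in the lower direction, with 6 lower and 1 higher of 58 tested, or 12.1%. ITGA8, the alpha 8 integrin chain that binds fibronectin and nephronectin, was at 11.6, 30.5 and 17.8 CPM at 5 months and 4.26, 6.34 and 4.12 CPM at 16 months, at -2.05 ± 0.17. The integrin chains ITGA6 and ITGA9 fell by 1.13 ± 0.082 and 1.05 ± 0.13, and ITGA9 was at -0.87 without animal 2, below the 2-fold minimum. CDH10, a classical cadherin, fell by 2.9 ± 0.18, from 1.01, 2.95 and 1.55 CPM to 0.144, 0.446 and 0.206 CPM. It passed the filter through the 5-month libraries alone, which fixed the lack of overlap. FAT3, a giant protocadherin whose window overlaps that of LOC787516, and JAM2, a junctional adhesion molecule, fell by 1.5 ± 0.18 and 1.28 ± 0.12. GJC1, the connexin 45 gap junction subunit, was the member called higher, at 1.02 ± 0.14. It fell below the 2-fold minimum without animal 1 (0.98), and its adjusted p was 0.0518 without animal 3. The beta chain ITGB1 was not called, at -0.25.

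Contractile genes had lower values as a list, mostly by less than 2-fold. Of 47 tested members, 2 were called, both lower, or 4.25%, which was near the share of all genes, while the list median was -0.29, or -0.19 under scaling by library size alone. At any fold change 22 members had an adjusted p below 0.05 in the lower direction and 2 in the higher, against 25.2% of all tested genes, 1576 lower and 1692 higher. ACTG2, the gamma smooth muscle actin, was at 226, 508 and 297 CPM at 5 months and 108, 189 and 126 CPM at 16 months, without overlap, at -1.34 ± 0.074. ACTC1, the cardiac alpha actin, fell by 1.81 ± 0.15. ACTA2, the smooth muscle actin that marks myofibroblasts, was at 4570, 7350 and 5290 CPM and then 3450, 4990 and 3680 CPM, at -0.60 ± 0.054 (adjusted p = 0.00296), with overlap between ages since animal 2 was the highest at both. The summed level of the smooth muscle and pericyte markers was 618 to 1040 CPM at 5 months and 510 to 590 CPM at 16 months. That list counts ACTG2, and among its 7 tested members ACTG2 was called lower and ABCC9, a potassium channel subunit, higher at 1.06 ± 0.13, which was 0.99 without animal 2. Without animal 3, 4 contractile genes were called. The part of such cells in the result was not tested.

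**Figure D3:**
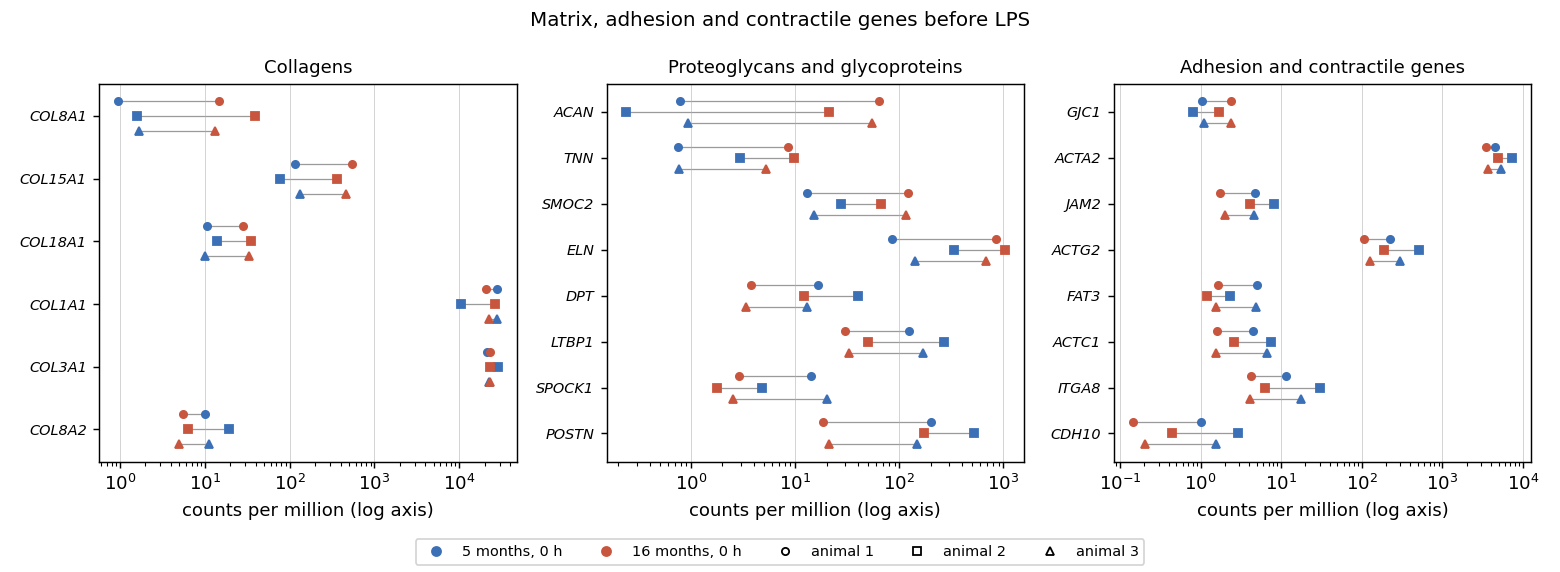
CPM of matrix, adhesion and contractile genes on a log axis, blue for 5 months and red for 16 months at 0 h, with a grey line joining the ages of each animal. COL8A1 was higher and LTBP1 and ITGA8 lower at 16 months in each animal with no overlap. COL1A1 of animal 2 moved opposite to animals 1 and 3. ACAN was higher and CDH10 lower, and the expression filter fixed their lack of overlap.

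Receptors coupled to G proteins held the highest share of calls after the lists of mitosis and DNA replication, with 6 higher and 5 lower of 38 tested, or 28.9%. Of these, NPY1R, P2RY1 and F2R passed the filter through one age alone. The members moved in both directions, and the list median was -0.02, or 0.08 under scaling by library size alone. NPY1R, a neuropeptide Y receptor, was at 0.0259, 0.0391 and 0.0179 CPM at 5 months, or 9 reads in all, and at 4.71, 1.86 and 3.83 CPM at 16 months, a log2 fold change of 6.65 ± 0.37. BDKRB1 and BDKRB2, the kinin receptors that lie side by side on chromosome 21, had log2 fold changes of 1.89 ± 0.37 and 1.44 ± 0.27. Animal 2 had the highest 5-month value of both, 3.58 and 1.86 CPM, and the groups did not overlap. Both lost the call without animal 1 (adjusted p = 0.0586 and 0.0892) and without animal 3 (adjusted p = 0.0803 and 0.0737). P2RY1, a nucleotide receptor, rose by 1.72 ± 0.19, and LPAR1, a receptor for lysophosphatidic acid, by 1.33 ± 0.27, although LPAR1 lost its call without animal 1 (adjusted p = 0.0908) or animal 2 (0.98).

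The receptors called lower included F2R, EDNRA, HTR2A and PTGFR. EDNRA, the endothelin receptor type A, was at 13.2, 16.9 and 13.7 CPM at 5 months and 3.36, 8.06 and 4.41 CPM at 16 months, at -1.64 ± 0.18 (adjusted p = 0.00513). F2R, the thrombin receptor PAR1, was at 2.96, 1.85 and 2.76 CPM and then 0.599, 0.354 and 0.67 CPM, at -2.33 ± 0.16 (adjusted p = 0.00138). EDNRA did not overlap between the ages, while for F2R the filter fixed the lack of overlap. HTR2A, a serotonin receptor, and PTGFR, the prostaglandin F receptor, fell by 1.39 ± 0.23 and 1.15 ± 0.19. PTGFR fell below the 2-fold minimum without animal 3, at -0.90 on the log2 scale. Without pairing of the animals 7 of the 11 receptor calls were left. At 8 h of LPS the same contrast gave log2 values of -0.35 for EDNRA and -0.41 for F2R, and whether these differed from the values at 0 h was not tested.

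Genes of prostaglandin and lipid mediator metabolism gave 4 calls of 25 tested, or 16%, all higher, with a median of 0.16. PTGIS, the prostacyclin synthase (chr13:78319046-78368752), was at 8.05, 12.2 and 7.47 CPM at 5 months and 83.6, 72.6 and 82.3 CPM at 16 months. The ages were far apart and the 16-month libraries lay close together, with a log2 fold change of 3.03 ± 0.19 (adjusted p = 0.0012). MGLL, the lipase that splits monoacylglycerols including an endocannabinoid, rose by 2.37 ± 0.22, from 5.11, 3.84 and 8.58 CPM to 38, 25.2 and 30.5 CPM. PTGER4, a prostaglandin E receptor, was within 3.95 to 4.09 CPM at 5 months and 8.24 to 10.6 CPM at 16 months, at 1.11 ± 0.093. Its log2 value at 8 h of LPS was 0.06, and that difference was not tested. HPGD, which inactivates prostaglandins, was called at 1.04 ± 0.10 with overlapping groups, and fell below the 2-fold minimum without animal 2, at 0.92. PTGS2 and PTGES, the inducible cyclooxygenase and prostaglandin E synthase, were not called, at 0.53 ± 0.18 (adjusted p = 0.095) and 0.72 ± 0.12 (adjusted p = 0.0154).

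Genes of LPS recognition and TLR signalling held 1 call before stimulation, or 2.38% of 42 tested, against 4.04% of all genes. The median was 0.16. At any fold change edgeR gave 11 of the 42 an adjusted p below 0.05 in the higher direction and 0 in the lower, with 19 and 4 at an unadjusted p below 0.05, while all tested genes divided into 1692 higher and 1576 lower. The called gene was NOD2, a cytosolic receptor for bacterial cell wall fragments, at 2.1, 1.17 and 2.48 CPM at 5 months and 6.7, 3.18 and 5.56 CPM at 16 months, without overlap. Its log2 fold change was 1.32 ± 0.13 (adjusted p = 0.00367), and without pairing it lost the call. TLR4, the LPS receptor itself, was at 1.17, 1.27 and 1.3 CPM and then 4.71, 1.85 and 2.46 CPM. The ages did not overlap, yet the spread among the 16-month libraries was wide, and TLR4 at 1.06 ± 0.30 missed the threshold with an adjusted p of 0.06. It passed without animal 2 (1.37, adjusted p = 0.032), by DESeq2 (adjusted p = 0.0107) and by limma-voom (adjusted p = 0.0489). CD14, which hands LPS to the receptor, reached 0.324, 0.0939 and 0.179 CPM and then 1.28, 1.04 and 0.941 CPM. It missed the expression filter, and with a filter of 10 reads in 3 libraries, under which 4.01% of genes were called and 2.66% called higher, its log2 fold change was 2.46. Without animal 3 CD14 passed the filter through the 16-month libraries alone and was called at 2.53 (adjusted p = 0.0356), which adds no support to the list. The list held 2 calls without animal 2 and, with CD14, 2 without animal 3. With a likelihood-ratio test, the type of test the study used, it also held 2 calls. LY96, the partner of TLR4, was at 15.5 to 16.5 CPM at 5 months and 16.4 to 18 CPM at 16 months, and its log2 fold change was -0.01 ± 0.056, which turned positive at 0.09 when only library size was used for scaling and at 0.04 without animal 2. MYD88, the adaptor of most Toll-like receptors, was at 0.24 ± 0.040.

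**Figure D4:**
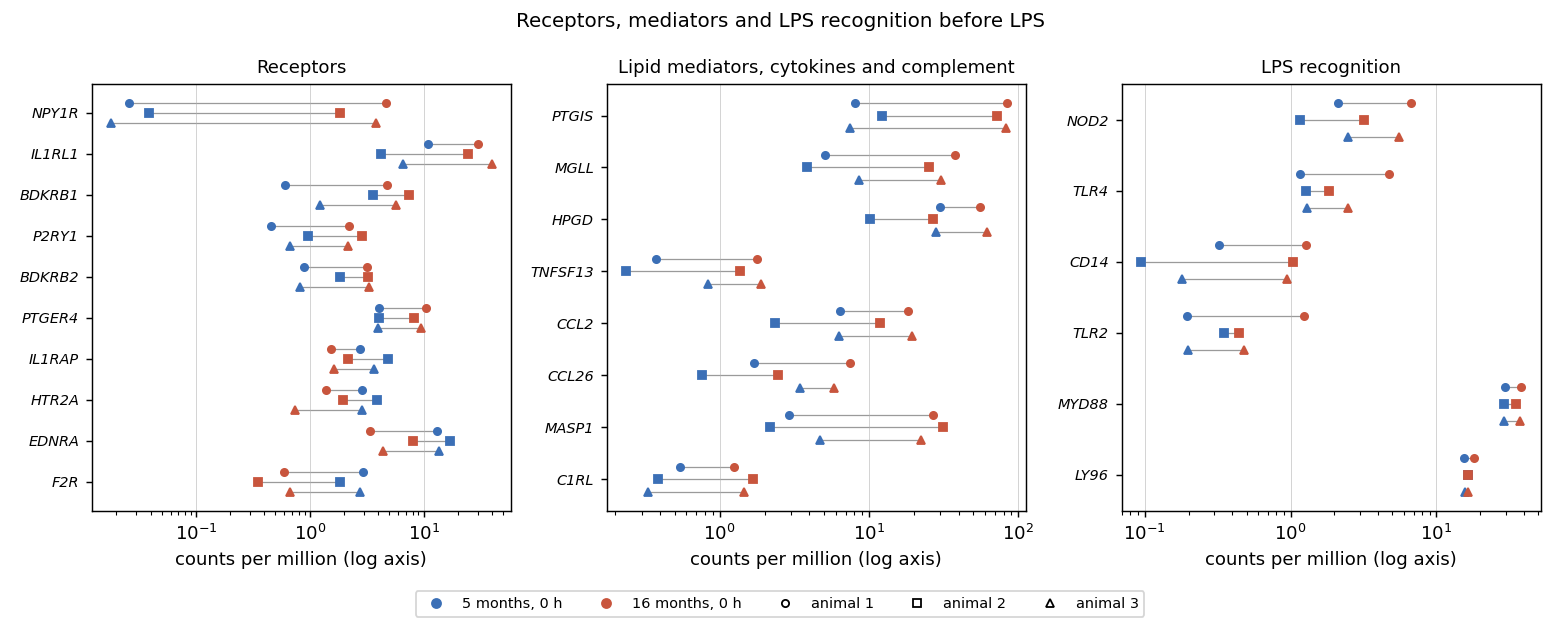
CPM of receptors, mediators and LPS recognition genes on a log axis, blue for 5 months and red for 16 months at 0 h, joined by animal. PTGIS and MASP1 were higher and EDNRA lower at 16 months without overlap. LY96 ranged from 15.5 to 16.5 CPM at 5 months and from 16.4 to 18 CPM at 16 months. F2R was lower, and the expression filter fixed its lack of overlap.

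Most cytokine genes lay below the expression filter at rest. Of 64 cytokines and chemokines in the files 18 passed the expression filter, and 3 were called, all higher, with a median of 0.47. CCL2, a monocyte attractant, was at 6.4, 2.36 and 6.28 CPM at 5 months and 18.2, 11.9 and 19.5 CPM at 16 months, without overlap, at 1.71 ± 0.17. CCL26, an eosinophil attractant, was called at 1.41 ± 0.28 with overlapping groups and lost the call without animal 1 (adjusted p = 0.0806). TNFSF13, the B cell factor APRIL, passed the filter through the 16-month libraries alone, was at 1.82 ± 0.31 and lost the call without animal 1 as well (adjusted p = 0.0755). Without pairing these 3 genes lost their calls, and without animal 1 the list held 1 call. IL8 and IL6 lay below the filter, IL8 at 0.181, 0.102 and 0.17 CPM and then 0.288, 0.131 and 1.13 CPM, and IL6 at 0.0389, 0.54 and 0.0448 CPM and then 0.355, 1.01 and 0.18 CPM. Both were higher at 16 months in 3 of 3 animals with overlapping groups, and with the filter of 10 reads their adjusted p were 0.185 and 0.0775. CCL20 and SAA3 had 0 reads in the 6 libraries.

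Of 32 tested cytokine receptors, 1 was called in each direction, or 6.25%, against 4.04% of all genes. Both belong to the same complex. IL1RL1, the receptor for interleukin 33, was at 11, 4.22 and 6.55 CPM at 5 months and 30, 24.4 and 39.6 CPM at 16 months, at 2.09 ± 0.25 (adjusted p = 0.0065). IL1RAP, the co-receptor that interleukin 1 and interleukin 33 share, was at 2.77, 4.82 and 3.68 CPM and then 1.54, 2.18 and 1.65 CPM, at -1.15 ± 0.12 (adjusted p = 0.00411). Neither gene overlapped between the ages.

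Of 18 tested complement genes, 16.7% were called with all animals, all higher, and these included MASP1 and C1RL. MASP1, a protease of the lectin pathway, went from 2.92, 2.18 and 4.69 CPM to 26.9, 31.2 and 22.3 CPM, at 2.98 ± 0.31. Its values kept the ages apart without overlap. C1RL, a relative of the C1r protease, passed the filter through the 16-month libraries alone, was at 1.72 ± 0.26 and lost the call without animal 3 (adjusted p = 0.0562). With the filter of 10 reads, SERPING1 was also called higher and COLEC12 lower. COLEC12 was not tested in the main fit and was called lower without animal 2, at -2.71. Of 23 tested genes of antigen presentation, NLRC5, the activator of class I genes, rose by 1.47 ± 0.14. CD1D, which presents lipids, was called at 1.63 ± 0.41 and lost the call without animal 3 (adjusted p = 0.0886).

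Interferon-stimulated genes did not reach a call with all animals. Of 50 tested, edgeR, DESeq2 and limma-voom each called 0, while 9 had an unadjusted p below 0.05 in the higher and 14 in the lower direction, and the median was 0.04. MX1 and IRF7 had log2 fold changes of -0.03 and 0.89, the latter with an adjusted p of 0.016, and MX1 was at 0.07 under scaling by library size alone and 0.09 without animal 3. IRF7 passed without animal 1 (1.08, adjusted p = 0.0217), when the list held 1 call, and without animal 2 the list held 1 call as well, SP100 at 1.19 (adjusted p = 0.0162), which then passed the filter through the 16-month libraries alone. IFI27 lay below the filter and with the filter of 10 reads was at 1.40 ± 0.35 (adjusted p = 0.048). At 8 h of LPS 17 of 63 tested members were called higher at 16 months, and the difference between the times was not tested here.

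Signalling by WNT and by TGF-beta and BMP had members called in each direction. Of 52 tested WNT genes, 3 were called higher and 4 lower, or 13.5%, with a median of -0.09 that became positive, at 0.01, under scaling by library size alone. The ligands WNT2 and WNT2B were at -1.18 ± 0.10 and -1.83 ± 0.34, and WNT2B had overlapping groups and lost the call without animal 3 (adjusted p = 0.0693). FZD1, a WNT receptor, went from 138, 200 and 154 CPM to 66.2, 102 and 66 CPM, at -1.18 ± 0.061. RSPO2, a secreted amplifier of WNT signals, fell by 1.59 ± 0.25. DAAM2, which links WNT receptors to actin, went from 7.6, 4.76 and 11.3 CPM to 35.9, 30.9 and 29.9 CPM, at 2 ± 0.25. NKD2, an inhibitor of the pathway, rose by 1.44 ± 0.12. WISP2, a CCN family protein, was called at 1 ± 0.11 and fell below the 2-fold minimum without animal 2, at 0.85. Without pairing 3 of the 7 calls were left.

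Of 51 tested genes of TGF-beta and BMP signalling, 3 were called higher and 2 lower, or 9.8%. INHBA, the subunit of activin A, was at 30.9, 74.3 and 38.5 CPM at 5 months and 12.4, 20.5 and 13 CPM at 16 months, at -1.68 ± 0.10, with no overlap. NOG, the BMP antagonist noggin, fell by 1.32 ± 0.10. ID1, a direct target of BMP receptors, went from 2.58, 1.35 and 2.3 CPM to 11.3, 5.08 and 13.5 CPM, at 2.11 ± 0.14. ACVRL1, the type I receptor ALK1, rose by 1.31 ± 0.16. BMPER, a secreted BMP modulator, was called at 1.44 ± 0.21 with overlapping groups. TGFB1 and TGFB2 were at -0.14 and -0.06 and were not called, and TGFB2 was at 0.04 under scaling by library size alone and 0.11 without animal 2. ID1 and INHBA were the calls left without pairing.

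Growth factors and their receptors gave 2 higher and 3 lower calls of 55 tested, or 9.09%. KITLG, the stem cell factor that supports melanocytes and mast cells, was at 1.04, 0.571 and 1.49 CPM and then 6.59, 1.71 and 6.3 CPM, at 2.03 ± 0.22. Animal 2 had the lowest value at each age, and the ages did not overlap. HBEGF, a ligand of the EGF receptor, fell by 1.26 ± 0.15. MDK, the heparin-binding factor midkine, was called at -1.08 ± 0.13, has a window that overlaps that of CHRM4, and fell below the 2-fold minimum without animal 2, at -0.94. IGFBP5, which binds insulin-like growth factors, was called at -1.25 ± 0.22 and fell below the minimum without animal 3, at -0.92. FGF10, a ligand made by mesenchyme, was called at 1.14 ± 0.27 with overlapping groups and lost the call without animal 1 (adjusted p = 0.128) or animal 3 (adjusted p = 0.129). Without pairing 1 of the 5 calls was left. FGF7, the keratinocyte growth factor, was at 55.1, 33.5 and 45.7 CPM and then 93.7, 75.9 and 91.6 CPM, a log2 fold change of 0.88 ± 0.088 (adjusted p = 0.0037) below the 2-fold minimum.

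Axon guidance molecules, which also steer vessels and cell migration, had 3 calls in each direction of 49 tested, or 12.2%. SEMA5A went from 0.532, 2.22 and 1.93 CPM to 16.1, 15.9 and 16 CPM, at 3.32 ± 0.38. SEMA3D went the other way, from 84.4, 71 and 81.2 CPM to 14.3, 21.6 and 13.6 CPM, at -2.38 ± 0.20. Both semaphorins separated the ages without overlap. SEMA3E fell by 1.43 ± 0.082. Of the netrin system, the ligand NTN1 was called at -1.47 ± 0.21 and had an adjusted p of 0.0514 without animal 1, while the receptor UNC5C rose by 1.23 ± 0.11. SEMA4A rose by 1.19 ± 0.11.

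Developmental transcription factors outside the HOX clusters gave 5 higher and 3 lower calls of 64 tested, or 12.5%. TBX2, LMX1B, PAX3 and RUNX3 were below 1 CPM in each library of one age and passed the expression filter through the other age alone. TBX2, a T-box repressor, was at 0.0778, 0.0783 and 0.215 CPM at 5 months and 1.53, 1.88 and 1.71 CPM at 16 months, at 3.72 ± 0.36. LMX1B, which patterns the dorsal limb, was at 0.194, 0.149 and 0.206 CPM and then 1.93, 1.76 and 1.93 CPM, at 3.26 ± 0.19. Neither overlapped. TFAP2A, a neural crest and epidermal factor, rose by 2.26 ± 0.093, MEOX2, a mesodermal homeobox factor, by 1.73 ± 0.14, and PAX2 by 1.33. EYA4, a phosphatase and co-activator of organ development (chr9:72417015-72736957), was at 26.5, 8.65 and 23.9 CPM and then 1.66, 0.814 and 0.864 CPM, at -4.19 ± 0.25. PAX3, a neural crest and muscle precursor factor, and RUNX3 fell by 2.9 ± 0.30 and 2.92 ± 0.44, and each was below 1 CPM in the 16-month libraries. Of 19 tested HOX genes, which keep the positional identity of fibroblasts, 1 was called, or 5.26%. This was HOXA7, at -1.07 ± 0.23, and it lost the call in turn without animal 1 (adjusted p = 0.0599), animal 2 (adjusted p = 0.0511) and animal 3 (adjusted p = 0.103).

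Of 25 tested imprinted genes, 1 was called in each direction, or 8%. MEST, a paternally expressed gene whose window holds MIR335, was at 17.3, 27.9 and 20.4 CPM at 5 months and 4.38, 5.17 and 3.64 CPM at 16 months, at -2.4 ± 0.11 (adjusted p = 0.000675), without overlap. CDKN1C, a maternally expressed inhibitor described above, was the member called higher. H19 was at 7.48, 0.462 and 9.84 CPM and then 4.45, 1.23 and 2.8 CPM, which was lower at 16 months in animals 1 and 3 and higher in animal 2. Its log2 fold change was -0.71 ± 0.58 with all animals, -1.37 without animal 2 (adjusted p = 0.0226) and 0.05 without animal 3. IGF2, its neighbour, was at 0.07 ± 0.63, was not called and was at -0.62 without animal 2 (adjusted p = 0.258). Its window overlaps other windows. The list held 4 calls without animal 2 and 1 without animal 1 or animal 3.

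**Figure D5:**
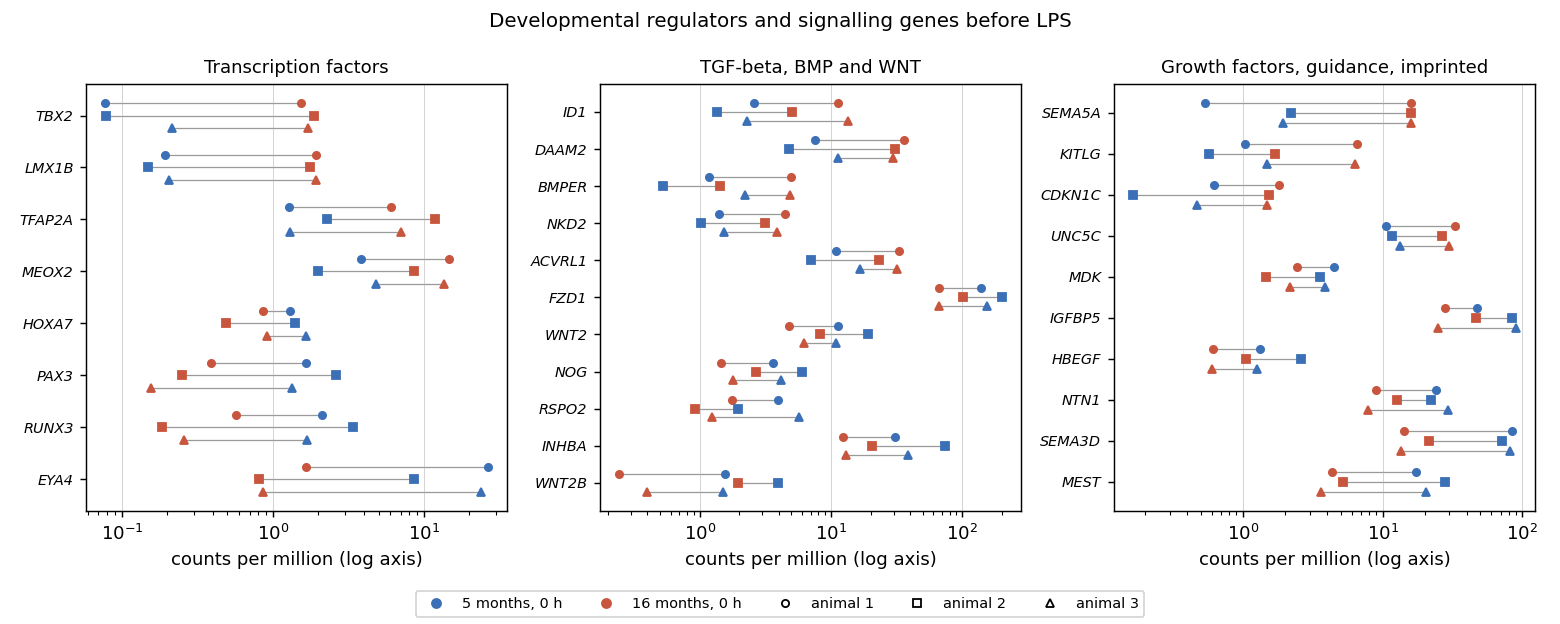
CPM of developmental regulators and signalling genes on a log axis, blue for 5 months and red for 16 months at 0 h, joined by animal. SEMA5A was higher and EYA4, SEMA3D and MEST lower at 16 months in each animal without overlap, and WNT2B and BMPER overlapped. TBX2 and LMX1B were higher and PAX3 lower, and the expression filter fixed their lack of overlap.

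Hormone handling and metabolism gave single genes. Of 47 tested nuclear receptors and genes of steroid handling, 3 were called higher and 1 lower, or 8.51%. GREB1, a gene that oestrogen receptors induce in other tissues, was at 0, 0.117 and 0.0986 CPM and then 10.8, 5.51 and 6.45 CPM, at 6.33 ± 0.55, and passed the filter through the 16-month libraries alone. PGR, the progesterone receptor, lay at 0.00896 to 0.0998 CPM across the libraries. CYP1A1, the main target of the aryl hydrocarbon receptor, rose by 1.94 ± 0.080, from 4.95, 2.41 and 6.93 CPM to 23.3, 9.71 and 25.6 CPM. FKBP5, a glucocorticoid-induced chaperone, rose by 1.17 ± 0.067, and CYP7B1, an oxysterol hydroxylase, fell by 1.24 ± 0.20 with overlapping groups. NR3C1, the glucocorticoid receptor, was at 0.33 and was not called. Without animal 2 the list held 8 calls, without animal 3 it held 6, and without pairing of the animals it held 2.

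In lipid metabolism, 26 of 30 tested genes of cholesterol synthesis and uptake had a negative value, with a median of -0.19, and 1 was called. Under scaling by library size alone 20 of the 30 were negative and the median was -0.087. The called gene was ABCA1, the cholesterol exporter, at 8.15, 4.45 and 5.83 CPM and then 3.89, 0.512 and 2.67 CPM, at -1.72 ± 0.40. It lost the call without animal 1 (adjusted p = 0.0782) or animal 3 (adjusted p = 0.0655). Of 30 tested genes of adipocytes and fat storage, 1 was called in each direction, or 6.67%. FABP3, a fatty acid carrier, was called at -1.25 ± 0.23, with adjusted p of 0.0618 without animal 1 and 0.0641 without animal 3, and ZNF423, a preadipocyte factor, at 1.51 ± 0.23 with overlapping groups.

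Stress and energy genes held few calls. Of 45 tested genes of glycolysis and hypoxia response, 2 were called, or 4.44%, which was near the 4.04% of all genes. EGLN3, an oxygen-sensing prolyl hydroxylase, rose by 2.02 ± 0.094, from 4.19, 3.93 and 4.7 CPM to 20.7, 14.4 and 21.3 CPM. SLC2A3, a glucose transporter, fell by 1.2 ± 0.083. Of 49 tested genes of oxidative stress and metal handling, 2 were called, or 4.08%, also near that share. They were MT2A, a metallothionein, at 1.54 ± 0.19, and GPX3, a secreted peroxidase, at 1.13 ± 0.16, and GPX3 was at 0.999 without animal 2. Of 49 tested genes of the unfolded protein and heat shock response, 1 was called, or 2.04%, below that share. This was CRYAB, a small heat shock protein, at 26.1, 25.2 and 22.1 CPM and then 89.5, 77.7 and 95.3 CPM, at 1.74 ± 0.099. Of 36 tested immediate early genes, 3 were called, or 8.33%. FOS fell by 1.22 ± 0.071 while FOSL1, another subunit of the same AP-1 factor, rose by 1.14 ± 0.073. The third call was SPRY4, an inhibitor of growth factor signals, at 1.02 ± 0.21, which missed the call without animal 1 (adjusted p = 0.0667), animal 2 (0.77) or animal 3 (adjusted p = 0.0617). Without pairing of the animals this list held 1 call.

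The remaining lists were short. Of 26 tested Notch and hedgehog genes, 1 was called in each direction, or 7.69%. The ligand DLL1, which passed the filter through the 5-month libraries alone, fell by 1.53 ± 0.14. The target HEYL, whose window overlaps that of BMP8B, was called higher at 1.25 ± 0.13. Of 12 tested cartilage, bone and tendon genes, ACAN and MATN3 were called, as given above. Of 17 tested genes that set upper dermis apart from deep dermis, COL18A1 and TGM2 were called higher and NTN1 lower, and a shift between these layers in the biopsies was not tested. Among 17 keratinocyte markers 1 passed the expression filter. This was DSC3, a desmosomal cadherin, at 198, 187 and 265 CPM and then 150, 94.7 and 136 CPM, at -0.88 ± 0.12 (adjusted p = 0.00933), and without animal 1 it was called at -1.06 (adjusted p = 0.00543), while KRT1, LOR and EPCAM had 0 reads. GRHL3, an epidermal transcription factor, lay below the filter at 0.207, 0.0313 and 0.108 CPM and then 1.65, 0.184 and 1.92 CPM, and with the filter of 10 reads its log2 fold change was 3.25 ± 0.39 (adjusted p = 0.00639). CDH1, the epithelial cadherin, had 14 reads over the 5-month and 220 over the 16-month libraries, at 3.88 ± 1.27 with the same filter (adjusted p = 0.0956). GRHL3 was called without animal 2 (3.46, adjusted p = 0.00418) and CDH1 without animal 3 (6.18, adjusted p = 0.0168), but both then passed the filter through the 16-month libraries alone, so these calls are descriptions. The part of keratinocytes in the results was not tested.

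Some of the largest changes fell outside these lists. Among the 20 largest rises none was a gene of the cell division lists. DTX4, a Deltex E3 ligase, was at 0.169, 0.172 and 0.251 CPM at 5 months and 6.89, 6.43 and 5.75 CPM at 16 months, at 4.89 ± 0.20. NTS, the neurotensin precursor, was at 0.726, 0.509 and 0.17 CPM and then 8.16, 7.71 and 6.6 CPM, at 4.01 ± 0.33. Both genes passed the filter through the 16-month libraries alone, which fixed the lack of overlap. FGD5, a guanine nucleotide exchange factor for CDC42, rose by 3.7 ± 0.19, and SESN3, a stress-inducible inhibitor of mTORC1, by 3.48 ± 0.27, from 3.56, 1.75 and 6.2 CPM to 55.7, 29.3 and 44.1 CPM. Of the falls, BRSK1, a kinase of neuronal polarity, and DFNA5, a gasdermin, fell by 2.83 ± 0.17 and 2.62 ± 0.22. CD200R1L, a relative of the CD200 receptor, was at 13.5, 17.4 and 13 CPM and then 1.21, 0.184 and 1.29 CPM, at -4.17 ± 0.54, and animal 2 had the lowest value at 16 months.

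The same cultures were sampled again after LPS. Of the 525 genes called at 0 h, 499 were also tested at 8 h and 490 of them had the same sign there, and 481 were tested at 2 h, of which 469 had the same sign. These libraries came from the same animals and cultures, so they are not independent of the comparison at rest.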

How the data were processed

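Total RNA of cultured fibroblasts had been poly-A enriched, prepared with the TruSeq kit and sequenced. The authors matched reads to the UMD 3.1 assembly with NextGENe 2.3.4, and the deposited files hold raw read counts per window, without normalization. Of 59846 windows, 27550 are gene windows, and 3905 of these overlap another. Reads may fall in several windows at once, and whether strand was used is not given in the sources used here. Age was taken from the labels.

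Gene windows with at least 1 CPM in at least 3 of the 6 libraries were tested in R 4.3.3 with the quasi-likelihood F test of edgeR 4.0.16, two-sided, with TMM factors and the animal as block, as the study's paired design. DESeq2 1.42.0 and limma 3.58.1 (voom) were alternatives, beside other filters, scalings and sets of libraries. The animal number on the labels pairs the samples. Deviations from the group mean correlated at 0.343, 0.636 and 0.322 within animals 1, 2 and 3, while animals 1 and 3 also correlated with each other (0.446 and 0.322). The pipeline was tested on simulated data.

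The comparison, its 36 function lists and 10 marker lists, and the rule for naming genes were chosen with earlier results of these data known. Named were the largest changes above 1 CPM on average, up to 4 called members per list and direction, a fixed set of LPS, cell cycle and matrix genes, and members needed to spell out counts of 5 or fewer, except for a few tested genes that are not reported here. Other list members, such as AURKB, PTTG1, MCM6, CDKN2B, CDKN2D, COL1A2, COL4A1, FN1, FGF7, GRHL3, IFI27 and LAPTM5, were chosen after their values were seen. No promoter sequence was used. Genes on the lists but absent from the tables were not analysed here.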

Additional observations from a re-analysis of the deposited data

Results flagged for a closer look

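Windows between genes were outside the comparison of genes and carried the same kind of difference. Of 6796 such windows that passed the expression filter, 187 were called, or 2.75%, with 100 higher and 87 lower at 16 months. Of the 187, 111 (59.4%) had a flanking gene called in the same direction, against 2.18% of the windows that were not called. Called windows lay beside PTGIS (chr13:78304516-78319045, log2 fold change 3.77 ± 0.27), EYA4 (chr9:72736958-72859127, -4.35 ± 0.30), SESN3 (chr15:15524180-15585021, 3.78 ± 0.35) and SPOCK1 (chr7:49617249-49961307, -2.53 ± 0.33), which moved in the same direction as those genes.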

How the results depend on the processing

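Without the pairing of animals (no replicate block) 383 genes were called in place of 525, of which 380 were calls of the paired fit, and 101 were lower in place of 170. The lower calls came to 110 when every library had to reach 1 CPM and to 110 with all 18 libraries in one fit. Without the 2-fold minimum 3268 genes passed, 1692 higher and 1576 lower. Of the 124 called genes that the naming rule gave, 72 kept the call under each alternative that tested them, since some alternatives left out genes with overlapping windows or low counts, and 38 lost it without the block. Of 14 called genes named beside the rule, 7 kept it. The fold change changed sign for 4 genes of the rule and 3 others, which were not called. COL1A1 was at -0.049 with 12 libraries, -0.057 with 18, -0.015 without the block and between -0.461 and 0.417 with an animal left out. IGF2 was at -0.205 with limma-voom, -0.285 without the block and between -0.616 and 0.908 with an animal left out. LY96 was at 0.086 scaled by library size and between -0.065 and 0.037 with an animal left out, and H19 was between -1.369 and 0.049. BGN was at 0.027, MX1 at 0.066 and TGFB2 at 0.038 scaled by library size, and with an animal left out they lay between -0.214 and 0.032, -0.119 and 0.088, and -0.24 and 0.106. Intergenic calls numbered 114 without the block and 120 to 192 with an animal left out. Scaling by library size alone moved the median of all genes from -0.006 to 0.092, a shift of 0.098, and 15 list medians between -0.09 and -0.002 then changed sign. The causes were not tested. Each age had 3 libraries of single cultures, and the main fit took the animal as block. Its p-values rest on how far the age difference varied between the 3 pairs, with part of that estimate shared over genes.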

Other observations

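Called genes were spread over the chromosomes in unequal shares. Chromosome 20 held 25 called of 223 tested, or 11.2%, and chromosome 17 held 8 of 397, or 2.02%. Runs of neighbouring genes called in 1 direction included GIMAP4, GIMAP6 and GIMAP5 on chromosome 4, GTPases first described in lymphocytes, and FEN1, FADS1 and FADS2 on chromosome 29, a DNA flap endonuclease beside fatty acid desaturases, all higher at 16 months. LMO4 to HS2ST1 on chromosome 3 formed a run of 4 genes that were lower.

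With a filter of at least 10 reads in 3 libraries, an alternative listed with earlier results known, further members came into view, and their counts by list were added after the data were seen. HOXA10, HOXA11 and HOXA13 joined HOXA7 as lower at 16 months, so that 4 of 26 tested HOX genes were called. With this filter 4.01% of all genes were called, and HOXA7 had lost its call in turn without each animal. LEF1 and RSPO1 joined the lower WNT genes. Other lists gained members in both directions, and not all of these are named here. CXCR4, a chemokine receptor, was called lower, and CCRL1 of the same list higher, at 1.92 ± 0.40 (adjusted p = 0.0314). The window of CCRL1 overlaps that of ACAD11. IL16, PTX3, CD14 and IFI27 were called higher. CCRL1, IL16 and PTX3 had fewer than 10 reads in each 5-month library, and LEF1 and RSPO1 in each 16-month library. These genes passed that filter through one age alone and had to differ to be tested.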
